A study of Mus musculus with 278 samples.

Results

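Cells that held transcripts of both Gfra1 and Kit were described here among single spermatogonia of the mouse testis. Members were chosen by the deposited expression values of these 2 genes, each of which had to reach at least 1 FPKM. The unit counts sequenced fragments relative to transcript length and to the depth of the cell. By that rule 122 of 278 cells were members (43.9%, exact 95% binomial interval 37.96 to 49.9%). The interval covers counting error only, and the share ran from 29.7 to 92.3% over the replicate preparations. The remaining 156 cells were 75 with Gfra1 alone (Gfra1-only cells), 42 with Kit alone (Kit-only cells) and 39 with neither at that level. Gfra1 and Kit chose the cells, so their levels are given as a description and without a test.

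All cells came from untreated mice on postnatal day 6 that carried the Id4-EGFP reporter, which marks cells in which the Id4 gene is transcribed. Testes of at least 2 pups were pooled per suspension, EGFP-positive cells were sorted, and single cells were captured on a Fluidigm C1 chip, stained for dead cells and imaged. Brightness of EGFP in the images placed each cell in a quartile, from Q1 (bright, 74 cells) through Q2 (70 cells) and Q3 (74 cells) to Q4 (dim, 60 cells). The 5 replicate preparations are read from the run number in the sample titles, and whether they came from separate litters is not given in the sources used here. The preparation was the unit of replication. The p-values weigh differences found within preparations against how much they varied over these 5 suspensions.

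GFRA1 is the co-receptor with which RET binds the growth factor GDNF, which Sertoli cells secrete and which maintains spermatogonial stem cells. Its transcript is used as a marker of stem cells and other undifferentiated spermatogonia. KIT is the receptor of stem cell factor, and its protein appears as spermatogonia begin to differentiate in response to retinoic acid. The 2 genes are therefore commonly used as markers of opposite ends of the spermatogonial lineage, with progenitor spermatogonia between them. Gfra1 lies on chromosome 19 (58235604 to 58455909, minus strand, GRCm38), where exons of the noncoding gene Gm16277 run on the opposite strand. Kit lies on chromosome 5 (75574916 to 75656722, GRCm38).

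Members carried germ cell transcripts. Of 15 germ cell markers, such as Ddx4 and Dazl, the median member held 13 at 1 FPKM or more (range 9 to 15) and the median remaining cell 12 (6 to 14). Markers of Leydig, peritubular, macrophage and mast cells had a median summed level of 0 FPKM in members and in remaining cells. The Leydig enzymes Hsd3b1, Cyp17a1 and Cyp11a1 and the Sertoli genes Amh and Fshr were under 1 FPKM in every cell. Other markers of these lists were detected. The Sertoli gene Sox9 was in 15 members (12.3%) and 6 remaining cells (3.85%), and Wt1 in 12 (9.84%) and 5 (3.21%). Rhox5 was in 20 (16.4%) and 20 (12.8%), Clu in 14 (11.5%) and 14 (8.97%), and Tsx in 4 (3.28%) and 6 (3.85%). The Leydig gene Star was in 25 (20.5%) and 30 (19.2%), and the endothelial gene Egfl7 in 64 (52.5%) and 53 (33.97%). Of 15 Sertoli markers, 2 or more were present in 16 of 122 members and in 7 of 156 remaining cells. Of 7 endothelial markers, 2 or more were present in 22 of 122 members and 9 of 156 remaining cells. Cells with 2 or more of either were thus more frequent among members. The summed Sertoli level, as a mean per preparation, ran from 19.3 to 59.4 FPKM in members and from 7.76 to 66.2 FPKM in remaining cells, and the endothelial sum from 9.45 to 33.3 and from 10.03 to 50.05 FPKM. A single member (preparation 2, Q3) held 10 Sertoli markers together with 13 germ cell markers. Without the 8 cells that held 3 or more Sertoli or 3 or more endothelial markers, of which 6 were members, the gene comparisons described further on gave 0, 2, 16 and 57 passing genes in place of 0, 2, 13 and 58.

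Preparation 1 stood apart. There 24 of 26 cells were members (92.3%), against 31 of 62 (50%) in preparation 2, 11 of 37 (29.7%) in preparation 3, 32 of 75 (42.7%) in preparation 4 and 24 of 78 (30.8%) in preparation 5. It therefore gave 2 remaining cells, 1 with Gfra1 alone and 1 with Kit alone, and none with neither. Estimated depth was lowest in its members, at a mean of 390926 fragments per cell, while members of the other preparations had means from 555645 to 672575.

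Co-detection of the 2 transcripts was about as frequent as the product of their separate frequencies. Gfra1 was detected in 70.9% of all cells and Kit in 58.99%, and the product of these shares gives 116.2 cells, against 122 observed. Computed within each preparation and summed, the product gives 119.2 cells. Within each preparation and quartile it gives 120.8 cells. The plot of Gfra1 against Kit shows the members as a broad cloud with no gap at the threshold.

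**Figure D1:**
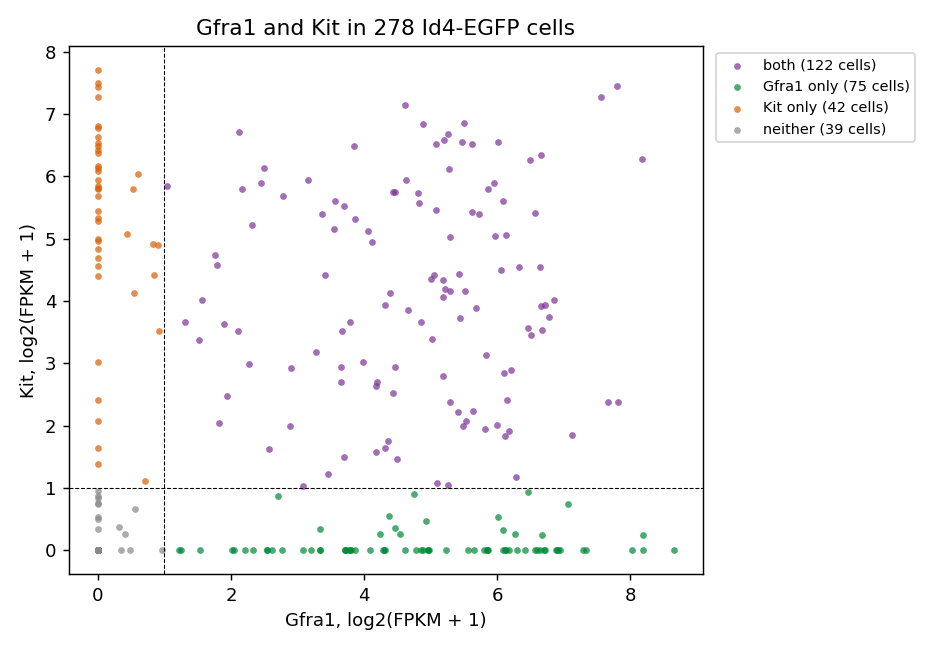
Each point is 1 cell, with Gfra1 on the horizontal and Kit on the vertical axis, both as log2(FPKM + 1); dashed lines mark 1 FPKM and colours the 4 classes. The 122 members spread over the upper right field, from just past the dashed lines up to 289 FPKM of Gfra1 and 173 FPKM of Kit.

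The share of members was higher in Q1 and Q2 than in Q3 and Q4 when cells were pooled, but not in every preparation. Pooled over preparations, members made up 37 of 74 cells in Q1 (50%), 37 of 70 in Q2 (52.9%), 30 of 74 in Q3 (40.5%) and 18 of 60 in Q4 (30%). Averaged over the 5 preparations, members made up 54.99% ± 23.9 (SD) of Q1 and 52% ± 25.4 of Q2. The mean shares of Q3 and Q4 were 47.7% ± 34.95 and 39.6% ± 36.6. The spread within a quartile was thus larger than the differences between quartiles.

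Within preparations, Q1 minus Q4 was -12.5 percentage points in preparation 1, -9.17 in preparation 2, 49.4 in preparation 3, 33.3 in preparation 4 and 15.8 in preparation 5. The share was higher in Q1 in 3 of 5 preparations, and the mean difference of 15.4 ± 26.7 points (SD) did not pass an exact two-sided sign-flip permutation test (p = 0.3125, where 0.063 is the smallest p that 5 preparations allow). The slope over all 4 quartiles was 5.04 ± 9.39 points per step toward Q1 (exact p = 0.3125). The Q1 minus Q4 difference was 6.86 points without preparation 3, in which 7 of 11 members lay in Q1, and 22.3 points without preparation 1.

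**Figure D2:**
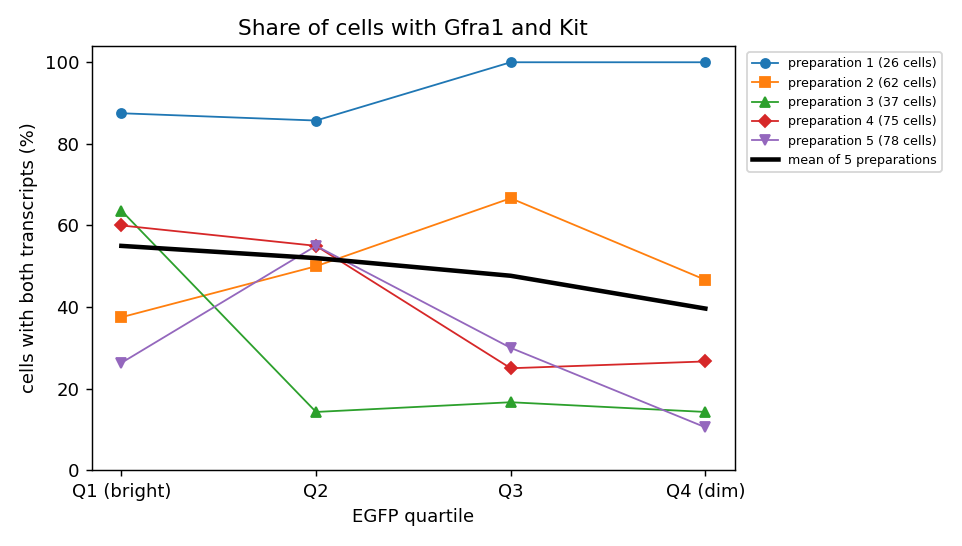
Lines give the percentage of cells with both transcripts in each EGFP quartile, 1 coloured line per preparation, and the thick black line the mean of 5 preparations. Preparation 1 lies at 85.7% or more throughout, preparations 3, 4 and 5 are lower in Q4 than in Q1, and preparations 1 and 2 are higher in Q4 than in Q1.

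The mean shares of the other classes, out of all cells of a quartile, also varied between quartiles. These shares were not tested. As means of 5 preparations, Gfra1-only cells made up 33.03% ± 16.6 of Q1 and 12.96% ± 9.53 of Q4 (SD). Cells with neither transcript made up 5.12% ± 3.29 of Q1 and 31.8% ± 24.1 of Q4. Kit-only cells made up 6.86% ± 7.94 of Q1 and 15.6% ± 13.3 of Q4, but in preparation 2 they made up 18.75% of Q1 and 13.3% of Q4.

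Within members, Gfra1 had a median of 32.5 FPKM (1.05 to 289) and Kit a median of 15.4 FPKM (1.03 to 173). Gfra1 in members lay near its level in Gfra1-only cells, whose median was 29.4 FPKM, while the Kit-only cells had a higher Kit median of 46.5 FPKM. In Q1 through Q4 the members' median Gfra1 was 44.3, 19.5, 21.4 and 26.4 FPKM, and their median Kit 12.2, 15.2, 23.7 and 17.2 FPKM. Gfra1 exceeded Kit in 78 members and Kit exceeded Gfra1 in 44. In 36 members Gfra1 was more than 4 times Kit, in 18 Kit was more than 4 times Gfra1, and in 68 the 2 lay within 4-fold. Gfra1 was the higher of the 2 in 30 of 37 members of Q1 (81.1%), 21 of 37 of Q2 (56.8%), 17 of 30 of Q3 (56.7%) and 10 of 18 of Q4 (55.6%).

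The threshold divided a continuous range of values. The members closest to it had 1.05, 1.48 and 1.86 FPKM of Gfra1 and 1.03, 1.06 and 1.11 FPKM of Kit, and the cells that missed membership by 1 gene alone came closest with 0.889, 0.879 and 0.798 FPKM of Gfra1 and 0.915, 0.871 and 0.829 FPKM of Kit. Among cells with neither, the highest values were 0.959 FPKM of Gfra1 and 0.925 FPKM of Kit. At the estimated median depth of 624541 fragments per cell (203649 to 1234832), 1 FPKM corresponds to about 2.90 fragments of Gfra1 and 3.27 of Kit, taking the longest coding transcript of each. At the lowest depth it corresponds to 0.945 and 1.07 fragments. With both genes at 5 FPKM or more 80 cells would be members, at 10 FPKM or more 62, and at any value above 0 149.

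Members detected more genes than the remaining cells of their preparation, with fewer or nearly equal estimated fragments. The number of genes at 1 FPKM or more, Gfra1 and Kit left out, was 7180, 7102, 4984, 6195 and 6321 per member in preparations 1 to 5 and 6748, 6795, 4204, 5976 and 5676 per remaining cell. The difference was 477 ± 233 genes (SD, n = 5, range 220 to 780), higher in members in 5 of 5 preparations (exact sign-flip permutation p = 0.063, the smallest possible). Estimated depth was 582290 ± 115820 fragments in members and 635859 ± 101696 in remaining cells, a log2 ratio of -0.14 ± 0.15, lower in members in 5 of 5 preparations (exact p = 0.063). The ratio was near 0 in preparation 2 (-0.004) and preparation 4 (-0.033). Its largest size, -0.37 in preparation 1, rests on 2 remaining cells. With membership at 5 FPKM the depth ratio was -0.045 (exact p = 0.6875). Cells with neither transcript detected fewest genes in each of the 4 preparations that held them except preparation 3, where the 2 Kit-only cells detected fewer. Membership itself needs 2 genes to be detected, which cells that detect many genes meet more readily. Leaving Gfra1 and Kit out of the count does not remove this selection, and its part in these differences was not tested.

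**Figure D3:**
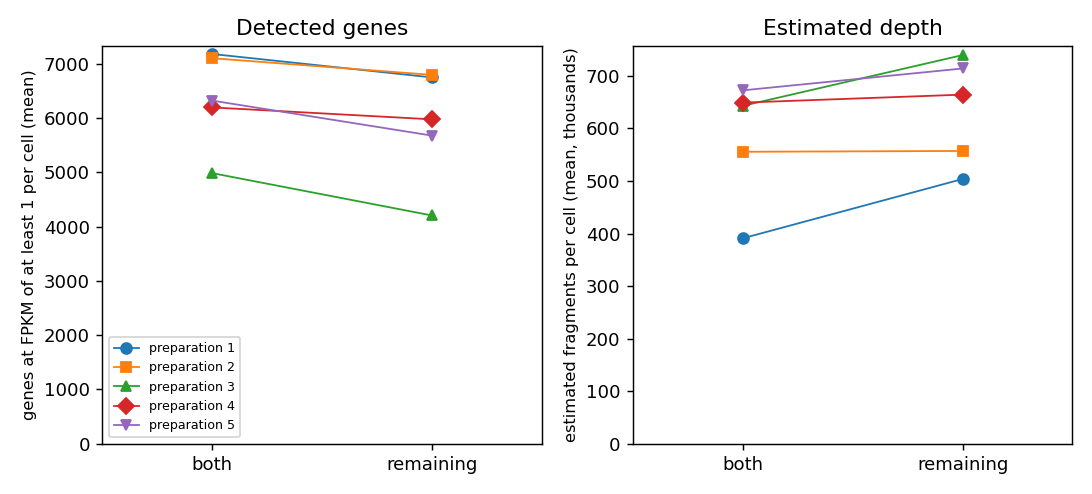
The left panel gives the mean number of genes at 1 FPKM or more per cell, and the right panel the mean estimated fragments per cell divided by 1000, for members (both) and remaining cells, 1 line per preparation. Every line in the left panel falls from members to remaining cells, by 220 to 780 genes, and every line in the right panel rises.

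Expression was compared between classes as the mean over cells of log2(FPKM + 1) per preparation, for 10450 genes, with limma, preparation as a block and Benjamini-Hochberg adjustment at 0.05. Differences are given on this scale with their SE, and positive values are higher in members. Against all remaining cells no gene passed in either direction (0% of 10450). At an unadjusted p below 0.05, 948 genes were higher in members (9.07%) and 64 lower (0.612%), and the median difference of all genes was 0.14. The higher number of detected genes in members moved with this shift. With the number of detected genes as a covariate the median of all genes was -0.00068, and it was 0.01 when each member was matched to a remaining cell of its preparation with the nearest number of detected genes. With the logarithm taken of the mean FPKM, and no adjustment for detected genes, the median was 0.0060. Values of the main fit against the remaining cells are therefore read against its median of 0.14.

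The genes of smallest p against the remaining cells were Hsd17b12, a fatty acid elongation enzyme, with a difference of 1.07 ± 0.17, Gt(ROSA)26Sor, a noncoding transcript of a widely active locus that exons of Thumpd3 overlap on the opposite strand, with 1.27 ± 0.22, and Stra8, a gene induced by retinoic acid, with 1.31 ± 0.23 (adjusted p = 0.0935 for each). They were followed by Tubd1, a delta tubulin, with 1.02 ± 0.21, Gpx7, a peroxidase, with 0.86 ± 0.18, and Cat, the catalase, with 1.05 ± 0.23 (adjusted p = 0.3597 for each). Among the genes lower in members, Mael, a piRNA pathway gene, differed by -0.32 ± 0.10 and Zp3 by -0.47 ± 0.16 (adjusted p = 0.3847 for both). The differences of Stra8 and Gt(ROSA)26Sor were 0.49 and 0.38 when the logarithm was taken of the mean FPKM in place of the mean of logarithms.

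Stem cell genes Tcl1, Etv5 and Dusp6 were higher in members than in Kit-only cells. Against Kit-only cells 13 genes passed, all higher in members (0.124% of 10450), and none was lower (0%). At an unadjusted p below 0.05, 667 were higher (6.38%) and 219 lower (2.10%). The class of Kit-only cells was small in preparation 1 (1 cell) and preparation 3 (2 cells). Means were weighted by their number of cells, and with unweighted means no gene passed. The count was 1 without preparation 4 and 0 without preparation 5.

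Of the 13 genes, 3 belonged to a list of 20 tested stem cell genes. All 20 were higher in members than in Kit-only cells, 12 of them at an unadjusted p below 0.05, with a median difference of 0.80, against 0.08 over all genes. Of all 10450 genes, 6207 lay above 0, and 6.38% were higher at an unadjusted p below 0.05. The list and its members were chosen with results of these data known, so its direction is no independent evidence. The same holds for the gene lists described below. Gfra1 itself was not in it. Against Gfra1-only cells the same list had a median of -0.37, with 6 of 20 lower and 0 higher at an unadjusted p below 0.05 (1.71% and 7.12% of all genes) and none passing. Both comparisons use the same member cells. The listed genes Eomes, Pax7, Thy1, T, Shisa6 and Pdx1 were not among the genes tested, because under 10% of cells held them at 1 FPKM.

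Tcl1, a co-activator of AKT kinases, had the smallest p of all genes against Kit-only cells and did not pass against the other classes. Its mean was 177, 158, 122, 174 and 158 FPKM in members of preparations 1 to 5. In Kit-only cells it was 49.8, 70.4, 38.04, 53.4 and 9.77 FPKM, and in Gfra1-only cells 535, 199, 257, 239 and 188 FPKM. The preparation means of members thus lay above all those of Kit-only cells and below all those of Gfra1-only cells. Members differed from Kit-only cells by 3.06 ± 0.40 (adjusted p = 0.00068, higher in 5 of 5 preparations) and from Gfra1-only cells by -0.81 ± 0.33 (adjusted p = 0.4818, lower in 5 of 5), and missed the threshold against cells with neither (adjusted p = 0.0559). Tcl1 also passed against Kit-only cells with detected genes as a covariate, where no other gene did, and did not pass without preparation 5 (2.21, adjusted p = 0.1399).

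Etv5 and Dusp6 behaved alike. Etv5 is an ETS transcription factor induced by GDNF and FGF and needed for stem cell maintenance, and Dusp6 is a phosphatase that limits ERK signalling. Mean Etv5 was 54.8, 40.2, 91.5, 34.6 and 54.9 FPKM in members of preparations 1 to 5, and 67.1, 75.4, 68.95, 47.2 and 53.5 FPKM in Gfra1-only cells. In Kit-only cells it was 111 FPKM in the lone cell of preparation 1 and 18.6, 0, 11.5 and 11.3 FPKM in the others. Members were therefore above Kit-only cells in every preparation but the first, and overlapped the Gfra1-only cells. The difference from Kit-only cells was 2.59 ± 0.40 for Etv5 and 2.56 ± 0.39 for Dusp6 (adjusted p = 0.00264 for both), and the difference from Gfra1-only cells was -0.66 ± 0.33 (adjusted p = 0.5857) and -0.89 ± 0.33 (adjusted p = 0.4372). Mean Dusp6 was 42.2, 57.1, 39.4, 44.9 and 53.03 FPKM in members and 94.3, 45.5, 0, 16.3 and 10.3 FPKM in Kit-only cells, again with the lone Kit-only cell of preparation 1 above the members.

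Of 20 tested genes that respond to GDNF or FGF, Ccnd2 and Spry4 passed as higher than in Kit-only cells beside Etv5 and Dusp6, so 4 in all, against 0.124% of all genes. The other 16 did not pass. This list too was chosen with results of these data known, so its count is no independent evidence. Etv5 and Dusp6 are also among the stem cell genes above, so the counts of the 2 lists share them. Of the 20, 17 lay above 0, against 6207 of all 10450 genes, and the median was 0.71, against 0.08 over all genes. Spry4, an inhibitor of receptor tyrosine kinase signalling, had means of 23.6, 19.01, 6.28, 21.2 and 24.7 FPKM in members and of 2.18, 17.4, 0, 3.48 and 1.04 FPKM in Kit-only cells, a difference of 1.99 ± 0.37 (adjusted p = 0.0206, higher in 5 of 5 preparations). The same 20 genes had a median of -0.34 against Gfra1-only cells, with 4 lower and none higher at an unadjusted p below 0.05 (1.71% and 7.12% of all genes).

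The further genes that passed against Kit-only cells were not on the stem cell list. They were Gfpt2, an enzyme of hexosamine synthesis (2.49 ± 0.38, adjusted p = 0.00264), the actin regulator Dstn (1.40 ± 0.22, 0.00317), the actin-binding Tagln2 (1.86 ± 0.31, 0.0059), the tyrosine kinase Fyn (2.06 ± 0.36, 0.0117) and the neurofilament gene Nefm (2.01 ± 0.38, 0.0247), which shares part of its locus with Nefl. Mcam, a cell adhesion gene, Tubd1 and a symbol that the file holds as a calendar date also passed, and were named after their values were seen. Dstn had means of 493, 431, 377, 486 and 493 FPKM in members and of 336, 300, 251, 279 and 237 FPKM in Kit-only cells, so that the preparation means did not overlap. Tagln2 likewise ran from 99.4 to 198 FPKM in members and from 20.1 to 94.4 FPKM in Kit-only cells.

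Id4, Ret, Bcl6b and Nanos2 did not pass, and their differences were below 0 against Gfra1-only cells and above 0 against Kit-only cells. Id4, the gene of the reporter and an inhibitor of DNA binding, was detected in 59 members (48.4%), 38 Gfra1-only cells (50.7%), 9 Kit-only cells (21.4%) and 10 cells with neither (25.6%). Its mean was 5.83, 8.48, 9.78, 7.92 and 7.80 FPKM in members and 45.3, 12.05, 5.53, 21.4 and 23.9 FPKM in Gfra1-only cells, with differences of -0.57 ± 0.29 from the latter (adjusted p = 0.6031) and 0.92 ± 0.35 from Kit-only cells (adjusted p = 0.4114). Ret, the signalling partner of GFRA1, was detected in 105 members (86.1%), 64 Gfra1-only cells (85.3%) and 20 Kit-only cells (47.6%), and differed by 1.70 ± 0.41 from Kit-only cells (adjusted p = 0.1335). Bcl6b, a transcriptional repressor induced by GDNF, differed by -0.89 ± 0.28 from Gfra1-only and by 1.24 ± 0.34 from Kit-only cells (adjusted p = 0.3693 and 0.2064). Nanos2, an RNA-binding repressor of differentiation, was detected in 21 members (17.2%), 25 Gfra1-only cells (33.3%) and 3 Kit-only cells (7.14%), and differed by -0.80 ± 0.25 from Gfra1-only cells (adjusted p = 0.3693).

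No progenitor gene passed as higher in members in any of the 4 comparisons. Neurog3, a transcription factor of progenitor spermatogonia, was detected in 10 members (8.20%), 9 Gfra1-only cells (12%), 7 Kit-only cells (16.7%) and 2 cells with neither (5.13%). Against the remaining cells the 9 tested progenitor genes had a median of -0.07 and none passed, against 0.14 for all genes. At an unadjusted p below 0.05, 1 was lower (Upp1, a pyrimidine salvage enzyme) and none higher, against 0.612% and 9.07% of all genes. With detected genes as a covariate the median was -0.71, and in matched cells -0.31.

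Upp1 was also the 1 gene that passed as lower in members than in cells with neither transcript (0.00957% of 10450). Its means in members were 38.7, 37.9, 32.6, 28.4 and 19.08 FPKM in preparations 1 to 5, and in cells with neither they were 100, 103, 131 and 112 FPKM in preparations 2, 3, 4 and 5, so that the classes did not overlap. The difference was -2.37 ± 0.44 (adjusted p = 0.0164), while Upp1 in members differed by -0.25 ± 0.35 from Gfra1-only cells and by -0.03 ± 0.43 from Kit-only cells. Against cells with neither, Upp1 did not pass with quartile or detected genes as a covariate, unweighted means or no replicate block. Nor did it with no filter, with membership at 5 FPKM or any value above 0, or without preparation 2, 4 or 5. Sox3, Lin28a and Rarg, further progenitor genes, were detected in 43 (35.2%), 102 (83.6%) and 34 (27.9%) members and passed in no comparison.

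Of the differentiation transcripts, Stra8 was higher in members than in Gfra1-only cells. Against Gfra1-only cells 2 genes passed, both higher in members (0.0191% of 10450), and none was lower (0%). The count was 0 without preparation 2 and 5 without preparation 4. They were Stra8 and Gt(ROSA)26Sor. Stra8, needed for entry into meiosis and switched on by retinoic acid, had means of 121, 93.1, 273, 125 and 117 FPKM in members and of 85.2, 30.1, 190, 47.7 and 35.3 FPKM in Gfra1-only cells. In Kit-only cells its means were 86.5, 195, 452, 152 and 139 FPKM. Members were above the Gfra1-only cells of their own preparation in 5 of 5, although the ranges overlap across preparations, in which preparation 3 was highest in all 3 classes.

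Stra8 differed by 2.21 ± 0.35 from Gfra1-only cells (adjusted p = 0.00846) and by -0.64 ± 0.42 from Kit-only cells (adjusted p = 0.7444). On the mean of logarithms members were higher than Gfra1-only cells in 4 of 5 preparations, the exception being preparation 1 with its lone Gfra1-only cell. Stra8 was detected in 105 members (86.1%), 44 Gfra1-only cells (58.7%), 37 Kit-only cells (88.1%) and 26 cells with neither (66.7%). The difference did not pass without preparation 2 (adjusted p = 0.1674), without preparation 3 (0.1459), with unweighted means (0.9935) or with detected genes as a covariate (0.2535), where its size was 2.25, 2.15, 1.75 and 2.39. It did not pass either with no filter on low values (0.0705), with no replicate block (2.16, 0.5239) or with membership at any value above 0 (1.69, 0.1755). Gt(ROSA)26Sor had means of 150, 143, 96.1, 208 and 161 FPKM in members and of 3.93, 125, 61.8, 117 and 92.9 FPKM in Gfra1-only cells, a difference of 2.10 ± 0.31 (adjusted p = 0.00569, higher in 5 of 5 preparations), and differed from Kit-only cells by 0.06 ± 0.37. The Gt(ROSA)26Sor difference from Gfra1-only cells did not pass in 7 of 16 alternatives, among them without preparation 2 (adjusted p = 0.1839) or 5 (0.137) and with membership at 5 FPKM (1.42, 0.3165).

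Of 15 tested differentiation genes, Stra8 was the 1 that passed against Gfra1-only cells, 4 were higher and none lower at an unadjusted p below 0.05 (7.12% and 1.71% of all genes), and the median was 0.44 against 0.10 for all genes. Sohlh2, a transcription factor of differentiating spermatogonia, differed by 0.81 ± 0.24 from Gfra1-only cells (adjusted p = 0.3693) and was present in 117 of 122 members (95.9%). Dnmt3b, a de novo DNA methyltransferase, had means of 31.05, 32.5, 53.8, 38.4 and 39.1 FPKM in members, of 0.451, 27.2, 28.9, 24.99 and 26.1 FPKM in Gfra1-only cells and of 133, 53.1, 57.3, 47.9 and 57.9 FPKM in Kit-only cells. In each preparation members thus lay between the other 2 classes, with differences of 0.74 ± 0.34 and -1.03 ± 0.41 that did not pass (adjusted p = 0.5431 and 0.4405). In preparation 1 each of the other 2 classes was 1 cell, and the Kit-only value of preparation 3 rests on 2 cells.

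Against Kit-only cells the same 15 genes had a median of -0.18, against 0.08 over all genes, with 4 lower and 1 higher at an unadjusted p below 0.05 (2.10% and 6.38% of all genes). The higher one was Ccnd2, a cyclin that the list shares with the GDNF and FGF genes, and which passed. The lower ones included Crabp1, a retinoic acid binding protein, with -1.63 ± 0.40 (adjusted p = 0.1335), Sohlh1 with -0.84 ± 0.35 (adjusted p = 0.495) and Dmrtb1 with -0.56 ± 0.24. Of the retinoic acid genes, Rec8, a meiotic cohesin, differed by 0.69 ± 0.24 from Gfra1-only and by 0.85 ± 0.29 from Kit-only cells (adjusted p = 0.3874 and 0.3373), and Dhrs3, a retinal reductase, by 1.43 ± 0.36 from Kit-only cells (adjusted p = 0.147).

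**Figure D4:**
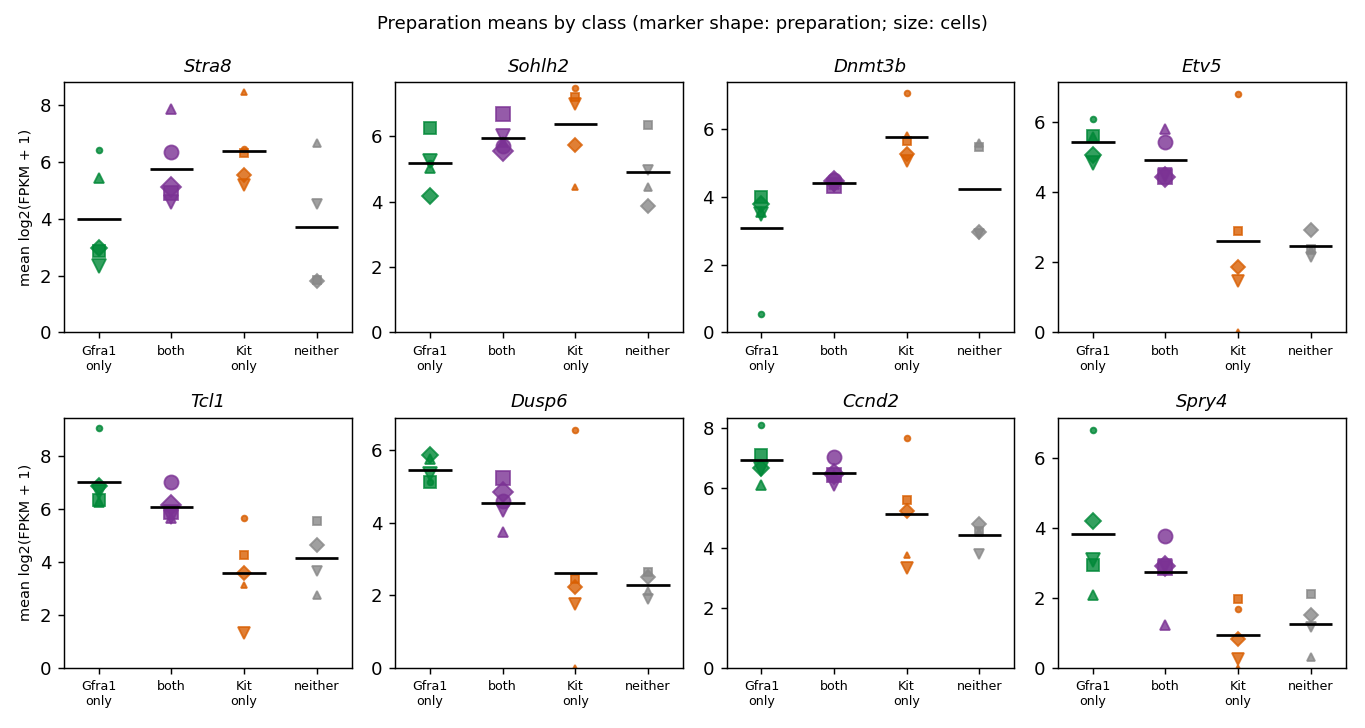
Each panel gives 1 gene, with the mean of log2(FPKM + 1) per preparation for Gfra1-only cells, members (both), Kit-only cells and cells with neither; marker shape stands for the preparation, marker size for its number of cells, and the black bar for the unweighted mean. Members sit next to Gfra1-only cells for Etv5, Tcl1, Dusp6, Ccnd2 and Spry4 and next to Kit-only cells for Stra8, and small orange markers are the 1 and 2 Kit-only cells of preparations 1 and 3.

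**Figure D5:**
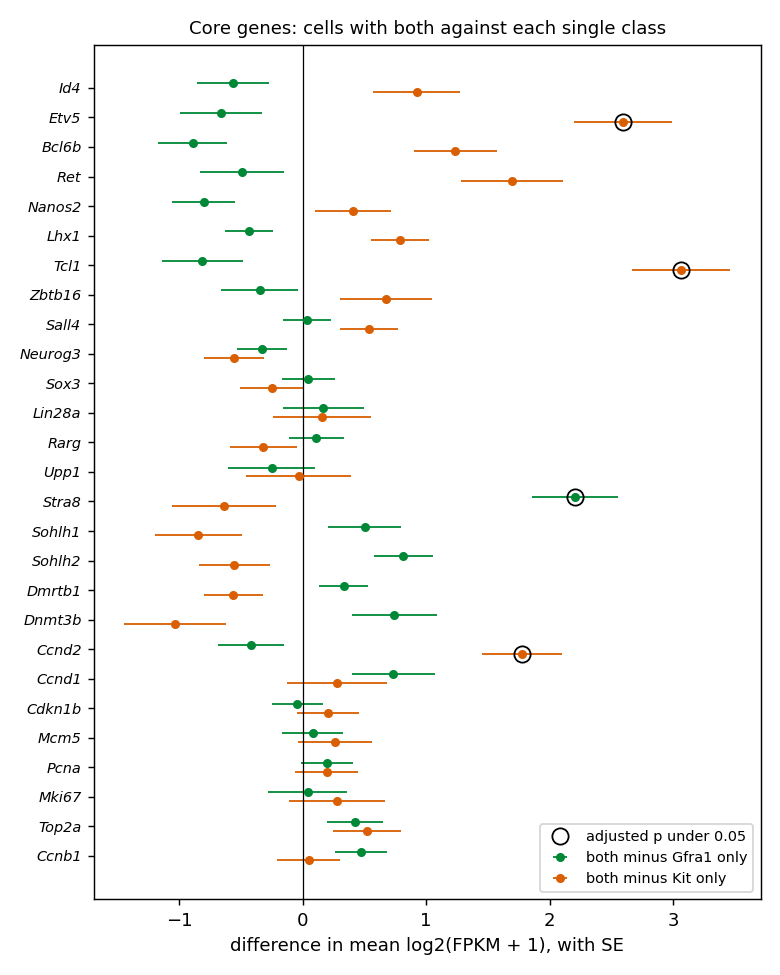
Points give the difference of members from Gfra1-only cells (green) and from Kit-only cells (orange) in mean log2(FPKM + 1), bars 1 SE, and circles an adjusted p under 0.05, for 27 stem, progenitor, differentiation and cell cycle genes. Circles stand at Tcl1, Etv5 and Ccnd2 against Kit-only cells and at Stra8 against Gfra1-only cells, and the stem genes from Id4 to Tcl1 lie left of 0 in green and right of 0 in orange.

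Etv5 and Stra8 occurred together in most members, and joint shares of stem and differentiation transcripts in members lay near the product of their separate shares. Etv5 and Stra8 were both at 1 FPKM or more in 100 of 122 members (81.97%, exact 95% binomial interval 73.98 to 88.3%, for counting error only), in 42 of 75 Gfra1-only cells (56%), in 15 of 42 Kit-only cells (35.7%) and in 10 of 39 cells with neither (25.6%). By preparation the share was 100%, 70.97%, 90.9%, 81.25% and 75% of members and 100%, 48.4%, 57.7%, 44.2% and 29.6% of remaining cells. The product of the shares of cells with Etv5 and with Stra8 was 81.8% in members, 57.1% in Gfra1-only cells, 35.7% in Kit-only cells and 34.2% in cells with neither. In members Etv5 was present in 95.1% and Stra8 in 86.1%. Shares this high leave the joint share little room, so its nearness to the product in members cannot show whether the 2 occur independently. The joint share was higher in members in preparations 2 to 5 and equal in preparation 1, where both remaining cells held the pair. Id4 and Stra8 were present together in 48 members (39.3%, against a product of 41.6%), with 50%, 45.2%, 36.4%, 37.5% and 25% by preparation, against 50%, 29.03%, 15.4%, 13.95% and 22.2% of remaining cells. The combination of Etv5, Tcl1 and Dusp6 was found in 102 members (83.6%, against a product of 79.4%), 65 Gfra1-only cells (86.7%), 11 Kit-only cells (26.2%) and 12 cells with neither (30.8%). These shares were not tested, and the part of the higher number of detected genes in members was not tested for them.

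Proliferation genes were expressed in nearly all members. Pcna and Mcm5, of DNA replication, and the mitotic cyclin Ccnb1 were at 1 FPKM or more in 122 of 122 members, the topoisomerase Top2a in 121 (99.2%) and Mki67 in 111 (90.98%). In Gfra1-only cells the same genes were detected in 74 (98.7%), 73 (97.3%), 71 (94.7%), 71 (94.7%) and 60 (80%) of 75. In Kit-only cells they were detected in 42 (100%), 39 (92.9%), 42 (100%), 42 (100%) and 38 (90.5%) of 42.

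Against the remaining cells, 48 of 51 G1/S and replication genes and 49 of 53 G2/M genes lay above 0 in members, with medians of 0.30 and 0.34, and none passed. Of all 10450 genes, 7622 lay above 0 here, with a median of 0.14. At an unadjusted p below 0.05, 11 and 15 were higher and none lower, against 9.07% of all genes higher. These medians were 0.06 and 0.12 in cells matched for detected genes, and -0.06 and 0.15 with detected genes as a covariate. The genes of smallest p were Slbp, which binds histone messages, with 0.50 ± 0.13 (adjusted p = 0.3597), the phosphatase Cdc25b with 0.59 ± 0.19, and Top2a with 0.52 ± 0.17 (adjusted p = 0.3847 for both).

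Ccnd2, a G1 cyclin, was the cell cycle gene that passed against Kit-only cells. Its means were 138, 128, 113, 99.8 and 111 FPKM in members, 201, 95.2, 91.2, 61.6 and 34.3 FPKM in Kit-only cells and 271, 150, 121, 113 and 139 FPKM in Gfra1-only cells. Members were above Kit-only cells in 4 of 5 preparations, by 1.77 ± 0.32 (adjusted p = 0.0165), and differed by -0.42 ± 0.27 from Gfra1-only cells (adjusted p = 0.6914). Exons of Gm43126 and 9330179D12Rik overlap Ccnd2 on the opposite strand. Its difference from Kit-only cells did not pass with quartile as a covariate (1.66, adjusted p = 0.0821) or without preparation 4 (2.05, 0.0781) or preparation 5 (1.13, 0.7001). Ccnd1, the related cyclin, differed by 0.74 ± 0.33 from Gfra1-only and by 0.28 ± 0.40 from Kit-only cells (adjusted p = 0.5339 and 0.9055).

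The comparison with cells that held neither transcript gave the most passing genes, 58 in all (0.555% of 10450), of which 57 were higher (0.545%) and 1 lower. At an unadjusted p below 0.05, 1643 genes were higher in members (15.7%) and 95 lower (0.909%), and the median of all genes was 0.28. These cells also detected the fewest genes, 5143 per cell over all preparations against 6535 in members, and with detected genes as a covariate no gene passed. With a preparation left out the count was 27, 2, 88, 5 and 0 for preparations 1 to 5. The genes of smallest p were Hsd17b12 (2.05 ± 0.35), Dusp6 (2.35 ± 0.41) and Tubd1 (1.43 ± 0.26), each with an adjusted p of 0.0158. Ccnd2 (1.83 ± 0.33, adjusted p = 0.0164), Gfpt2 (2.08 ± 0.39, 0.0164) and Etv5 (2.09 ± 0.41, 0.0245) passed here too. Of 51 replication genes Slbp (1.08 ± 0.24, adjusted p = 0.0404), which exons of Gm10459 overlap on the opposite strand, and Rpa2 (0.83 ± 0.19, 0.0408) passed, with a median of the list of 0.68, and of 53 G2/M genes none did, with a median of 0.68 as well. Stra8 differed by 1.72 ± 0.44 (adjusted p = 0.0649).

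Across EGFP quartiles no gene passed within the members. In a fit of the members alone no slope passed in either direction (0% of 10450), and at an unadjusted p below 0.05, 473 slopes toward Q1 were positive (4.53%) and 185 negative (1.77%). Of 20 stem cell genes 7 had a positive slope at that level and none a negative one, with a median of 0.16 per quartile step against 0.02 for all genes. Tcl1 had a slope of 0.51 ± 0.17 (adjusted p = 0.5422), Ret 0.48 ± 0.19 (0.673) and Id4 0.29 ± 0.18 (0.8316). The smallest p belonged to Tubg2, a gamma tubulin (0.94 ± 0.17, adjusted p = 0.098), and Upf3b, of nonsense-mediated decay (1.03 ± 0.20, 0.1115). Upp1, with -0.85 ± 0.22 (0.3494), Sohlh1, with -0.31 ± 0.11 (0.5941), and Stra8, with -0.30 ± 0.22 (0.8764), had negative slopes. The 51 replication genes had a median slope of 0.04 and the 53 G2/M genes one of -0.04.

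Of 5 differentiation genes compared between members with more Kit and members with more Gfra1, Stra8, Sohlh1 and Dnmt3b had higher values in the former in every preparation, and Sohlh2 and Crabp1 did not. The 78 members with more Gfra1 than Kit were set against the 44 with more Kit, as differences of mean log2(FPKM + 1) within preparations, with no test since the ratio of the 2 rule genes made the groups. Stra8 was lower in the Gfra1-leaning members in 5 of 5 preparations, by -0.93 on average (-1.42 to -0.24). Sohlh1 was lower in 5 of 5, by -0.97, and Dnmt3b in 5 of 5, by -0.57. Sohlh2 was higher in 2 of 5, with a mean difference of 0.14 (-1.19 to 2.32), and Crabp1 in 3 of 5, with 1.24 (-1.48 to 6.81). Nanos2 was higher in 5 of 5, by 0.68, and was detected in 18 of the 78 (23.1%) and in 3 of the 44 (6.82%). Etv5 was higher in 3 of 5, by 0.88, Tcl1 in 4 of 5, by 0.78, and Top2a in 4 of 5, by 0.14. Preparation 3 held 2 Kit-leaning members, so its values rest on those cells.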

How the data were processed

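Each of the 278 samples is 1 cell, and all 278 columns of the deposited matrix were used. Its values are FPKM, which the authors made with TopHat and Cufflinks on mm10 (GRCm38), per the submitters' processing notes, which also name FastQC and Picard. Neither versions nor the annotation are stated there, and the unit was read from the quantifier's name and the values, since the header does not give it. A value of exactly 0 may be a molecule that was missed or an estimate that failed (Gapdh is at 0 in 1 cell, Actb in none), and 6247 of 23354 genes are at 0 in every cell. No count model was applied. Without strand information, genes that overlap on opposite strands cannot be told apart, and 25 symbols appear as calendar dates. Depth was estimated from the steps of low FPKM values of 2110 genes with 1 transcript, and estimates from 2 gene sets lay within 1.25-fold in 273 cells. Wells with several cells were removed by the submitters after imaging, per the labels' protocols, and no doublet caller was run. Where the protocols name the dim quartile otherwise than the series design, the design was followed.

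Means of log2(FPKM + 1) per preparation and class (pseudocount 1) entered limma 3.58.1 (R 4.3.3, trend = TRUE, weights by number of cells, preparation as a block, two-sided, Benjamini-Hochberg adjustment), over 10450 genes at 1 FPKM or more in at least 10% of cells, without Gfra1 and Kit. The fit against remaining cells had 10 means and 4 residual degrees of freedom, the fit of 4 classes 19 and 11, and the trend over quartiles in members 20 and 14. The scale understates changes of low genes. Preparation pairs the classes, which share a suspension: their deviations correlated at 0.14 to 0.36 within preparations, and at a median of -0.08 across them. No 2 columns held the same cell (the highest correlation between any pair was 0.69). Shares and depths were tested by exact sign-flip permutation over 5 preparations, and intervals cover counting error only. Scripts were tested on simulated data.

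The named genes were a core list of 27, the 10 of smallest p in each direction of a comparison and up to 4 of smallest p in each described list. Members and lists were chosen with earlier results of these data known. Coordinates are from GENCODE M21, which matched 21695 symbols. Alternatives were other pseudocounts, filters, weights, scalings and membership thresholds, matched cells, left-out preparations, no block, and covariates for detected genes or quartile.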

Additional observations from a re-analysis of the deposited data

How the results depend on the processing

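The share of members in Q1 minus Q4 was 6.86 to 22.3 points and its slope 2.66 to 7.597 points per step when 1 preparation was left out, the difference in detected genes 401 to 541, and the log2 depth ratio -0.17 to -0.08. With membership at 5 FPKM the depth ratio was -0.045 (exact sign-flip permutation p = 0.6875), and with membership at any value above 0 it was -0.097 (exact p = 0.3125), against -0.14. None of these 4 results changed direction under the alternatives tried. Counts of passing genes moved more. Against the remaining cells (0 genes) scaling cells to a common 75th percentile gave 3, membership at 5 FPKM 1, and leaving out a preparation 0 to 1.

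Against Gfra1-only cells (2 genes) there was 1 with no filter on low values, 0 with unweighted means, 0 with detected genes as a covariate, 1 with membership at 5 FPKM, 1 with membership at any value above 0, and 0 to 5 with a preparation left out (0 without preparation 2, 1 without preparation 3 or 5, 5 without preparation 4). Against Kit-only cells (13 genes) there were 6 with no filter, 1 with detected genes as a covariate, 0 with unweighted means, 25 with membership at any value above 0, and 0 to 14 with a preparation left out (1 without preparation 4, 0 without preparation 5). Against cells with neither (58 genes) there were 93 with a pseudocount of 0.1, 4 with no filter, 0 with detected genes as a covariate, 0 with unweighted means, 529 with scaling to the 75th percentile, which moved the median of all genes from 0.28 to 0.38, 2 and 9 with membership at 5 FPKM and at any value above 0, 13 with quartile as a covariate (chosen after seeing the data), and 0 to 88 with a preparation left out (27, 2, 88, 5 and 0 without preparations 1 to 5). The trend over quartiles in members (0 genes) gave 2 with scaling and 0 to 1 with a preparation left out.

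With no replicate block the counts were 0 against remaining, 0 against Gfra1-only, 8 against Kit-only and 13 against neither cells, and 0 for the trend. The cause of these changes was not tested, beyond the fewer samples or other genes tested that an alternative implies. For single named genes, 190 alternatives took a passing difference below the threshold, 53 took one past it and no passing difference changed sign. Removing cells with Sertoli or endothelial markers, the covariates with preparation 1 left out and quartile covariates in the class comparisons were also chosen after seeing the data. Depth limits membership near 1 FPKM, where a value rests on about 3 fragments.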
